A study of Mus musculus with 12 samples.

Results

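The calvaria, or skull vault, of mouse embryos with a heterozygous Runx2 mutation (Runx2+/-) was compared with that of wild-type (WT) embryos, both from dams given vehicle. The comparison was drawn from the labels alone and takes 6 of the 12 RNA-sequencing libraries of the series, 3 of Runx2+/- vehicle and 3 of WT vehicle. The other 6 libraries come from MS-275 (entinostat, a histone deacetylase inhibitor) and enter only in alternative fits. All embryos were at embryonic day 17.5 on a C57BL/6 background, from parents mated at 8 weeks of age. The sources used here do not give what the vehicle was, when it was injected or which part of Runx2 the mutant allele lacks. Nor do they say whether replicates of a group were separate embryos or litters. The p-values thus rest on the spread among these libraries only, which may be technical.

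RUNX2 is a transcription factor of the Runt family that binds DNA together with its partner CBFB and is needed for mesenchymal cells to become osteoblasts. In mice without RUNX2 no bone forms, and loss of 1 functional copy gives cleidocranial dysplasia in people and a similar state in mice, with wide fontanelles and small collarbones. In osteoblasts RUNX2 acts upstream of the transcription factor Sp7 (osterix) and of genes for type I collagen and the mineral-binding matrix proteins. Osteoblasts in turn control osteoclasts, the cells that resorb bone, through Csf1, Tnfsf11 (RANKL) and its decoy receptor Tnfrsf11b. The comparison therefore asks whether these groups of genes differ at transcript level in a skull vault with 1 mutant Runx2 allele.

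Each library held 16108108 to 17636311 counts in genes in Runx2+/- vehicle and 13307456 to 19044500 in WT vehicle. Levels are given as CPM (counts scaled to the library's total) on the scale of the trimmed mean of M values, in the order of replicates 1, 2 and 3. A gene with 3 counts in a library had 0.152 to 0.221 CPM, and this floor covers counting error only. Bone genes were measured in all 6 libraries, and so were markers of tissues around the skull vault. Both libraries numbered 3 stood apart from the other 4. On the first principal component, with 76.5% of the variance, Runx2+/- replicate 3 was at 72.8 and WT replicate 3 at 113, and the other 4 libraries lay between −65.5 and −23.9. Lens and neuron transcripts went with this split. The lens gene Cryaa, a crystallin, was at 472, 553 and 6.51 CPM in Runx2+/- and 648, 607 and 6.90 CPM in WT. The neuron gene Dcx, for doublecortin, was at 413, 1027 and 88.6 CPM in Runx2+/- and 771, 974 and 49.7 CPM in WT. Markers of the X chromosome's inactivation and of the Y chromosome were not balanced either. Xist was at 3.54, 2580 and 4703 CPM in Runx2+/- and 2341, 2.50 and 2.97 CPM in WT. The Y-linked gene Ddx3y was at 106, 0 and 2.35 CPM in Runx2+/- and 0, 97.2 and 102 CPM in WT. Runx2+/- replicate 3 therefore had the highest Xist level of the 6 libraries together with a low but measured level of Y-linked transcripts.

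No gene passed the test for a difference between Runx2+/- and WT. Of 17565 genes tested with edgeR's quasi-likelihood test, 0 had an adjusted p under 0.05 (0% called), and the smallest adjusted p was 1.00. DESeq2 and limma-voom also called 0 genes. At an unadjusted p under 0.05 edgeR found 83 genes (0.473%), of which 59 (0.336%) were higher and 24 (0.137%) lower in Runx2+/-. If no gene differed, a share of 0.05 of genes would be met on average. The fit thus gave fewer small p-values than that. With the replicate number as a block, 0 genes passed the adjusted threshold and 543 (3.09%) had an unadjusted p under 0.05. In 831 genes (4.73%) the 3 Runx2+/- libraries did not overlap the 3 WT libraries, 448 of them (2.55%) higher and 383 (2.18%) lower in Runx2+/-. For interchangeable libraries a share of 0.1 would be met on average, so this share was low too. The reason for these low shares was not tested. Over all genes the median log2 fold change was −0.02, and the 5th and 95th percentiles were −0.40 and 0.49. The median standard error (SE) was 0.29 on the log2 scale. For 10156 genes (57.8%) the 95% interval lay within −1 and 1. For the other genes a 2-fold difference in at least 1 direction was not excluded by these 6 libraries.

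The mean level of Runx2 transcript in the heterozygotes was not below that of WT. The gene lies at chr17:44495987-44814797 on the minus strand (GRCm38, GENCODE M21). It was at 83.4, 41.4 and 74.3 CPM in Runx2+/- and 57.9, 54.1 and 59.0 CPM in WT. Replicates 1 and 3 of Runx2+/- lay above every WT library and replicate 2 lay below every one, so the groups overlapped. The means were 66.3 ± 22.1 CPM in Runx2+/- and 57.0 ± 2.56 CPM in WT (SD, n = 3 each). The log2 fold change was 0.22 (SE 0.27, 95% interval −0.44 to 0.87). This interval does not hold −1, the value of a transcript that falls in proportion to 1 copy of 2. The files give 1 count for the whole gene, so any transcript of the mutant allele outside its deleted part is counted too, and the value does not check the genotype labels. With both libraries numbered 3 left out, the log2 fold change of Runx2 was 0.16, as it was with the replicate block.

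The other Runt factors and their partner also overlapped between the groups. Runx1, a regulator of blood formation that is also made in skeletal progenitors, was at 33.8, 25.6 and 25.2 CPM in Runx2+/- and 24.5, 22.4 and 26.4 CPM in WT. Its log2 fold change was 0.21 (SE 0.17). Runx3, which takes part in cartilage maturation, was at 7.32, 2.88 and 4.17 CPM in Runx2+/- and 3.86, 4.12 and 7.85 CPM in WT, with a log2 fold change of −0.14 (SE 0.47). Cbfb, the shared partner, was at 136, 96.2 and 150.4 CPM in Runx2+/- and 115, 113 and 153 CPM in WT, with a log2 fold change of 0.01 (SE 0.22). In each of Runx2, Runx3 and Cbfb, replicate 2 was the lowest Runx2+/- library and lay below all WT libraries.

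**Figure D1:**
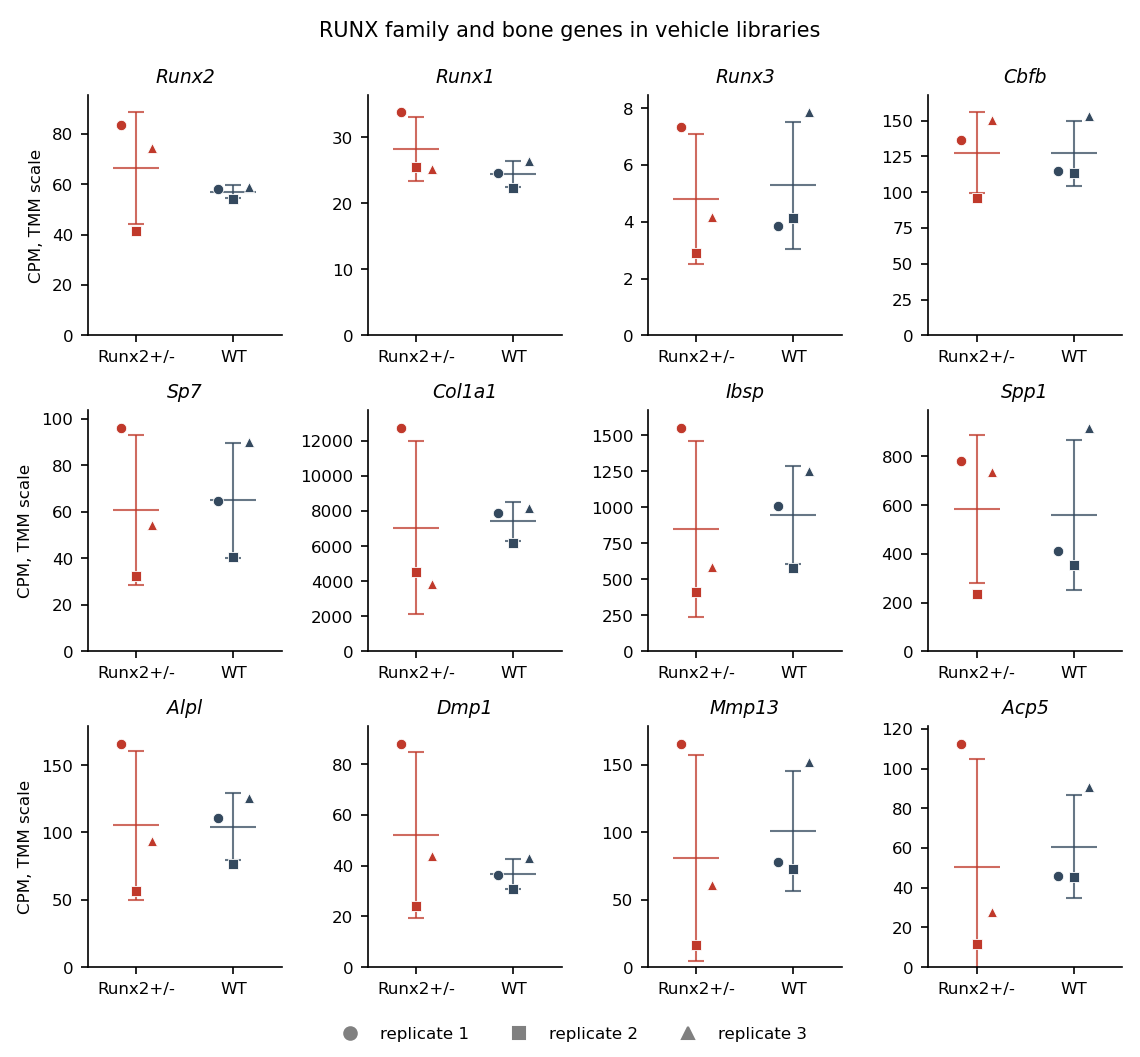
Level of 12 RUNX family, bone and osteoclast genes in each vehicle library (CPM, linear axes from 0). Points are libraries with a marker for each replicate number, horizontal bars are group means and error bars 1 SD (n = 3 each). In Runx2+/- (left of each panel) replicate 1 lies above replicate 2 for every gene shown, and for every gene but Runx1 the Runx2+/- range spans most or all of the WT range, as for Mmp13 with 165, 16.5 and 60.6 CPM in Runx2+/- and 78.1, 72.8 and 152 CPM in WT.

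The RUNX core motif, the DNA letters that RUNX2 is known to bind, is shown here for Runx2 and for reported RUNX2 targets. The motif searched was AACCACA or its reverse complement TGTGGTT, in RefSeq promoter windows (GRCm38.p6) of 250 bases before to 50 after the gene's start. Of 12844 tested genes with such a window, 578 (4.50%) held it. The lines below give the stretch around it from the promoter of Runx2 (chr17:44814672-44814738, minus strand), Spp1 (chr5:104434952-104435018, plus strand), Dmp1 (chr5:104202422-104202488, plus strand) and Mmp13 (chr9:7272365-7272431, plus strand). Bglap (chr3:88384563-88384628, minus strand) held the shorter ACCACA, which lies within the longer motif and which 15.1% of the windows held on either strand. Capitals mark the motif, and each line runs 5′ to 3′ on the gene's strand.
Runx2: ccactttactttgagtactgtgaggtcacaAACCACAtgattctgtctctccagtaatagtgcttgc
Spp1: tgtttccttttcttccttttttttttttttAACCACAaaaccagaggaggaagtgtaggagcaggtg
Dmp1: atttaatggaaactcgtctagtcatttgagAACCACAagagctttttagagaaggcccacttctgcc
Mmp13: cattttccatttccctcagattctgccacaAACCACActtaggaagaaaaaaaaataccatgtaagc
Bglap: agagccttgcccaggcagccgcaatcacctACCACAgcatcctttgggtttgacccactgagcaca

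Among genes reported as RUNX2 targets, 3 of the 20 with a window held the 7-letter motif, namely Spp1, Dmp1 and Mmp13. The same motif was in 2 of 16 bone matrix genes and 3 of 13 mineralization genes, and in 0 of 10 osteoblast regulators. The median log2 fold change was −0.03 over the 578 genes with the motif and −0.02 over the 12266 without. A match is a description of the letters and not a site shown to bind RUNX2.

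No bone gene passed the test, and the log2 fold changes of bone genes lay on both sides of 0. The lists of osteoblast regulators, bone matrix, mineralization and reported RUNX2 targets hold 66 different genes that were tested. Of these 0 were called, 0 had an unadjusted p under 0.05, against 0.473% of all genes tested, and 0 showed groups without overlap, against 4.73%. With so few genes of any kind under 0.05, the 0 of 66 at that p says little about bone genes. With the replicate block 0 were called, and 3 higher and 2 lower genes of the 66 had an unadjusted p under 0.05. That share is larger than the 3.09% of all genes. The higher genes were 2 mineralization genes and 1 osteoblast regulator, and the 2 lower genes were both osteoblast regulators. The 2 mineralization genes were Ahsg, which is made chiefly by liver, and Mgp, with a log2 fold change of 0.39 (SE 0.11) in that fit. The log2 fold change was above 0 in 30 and below 0 in 36, with a median of −0.03 against −0.02 over all genes tested. Their median SE of 0.43 was above that of all genes, at 0.29. For 35 of the 66 the lower end of the 95% interval was above −1, and for the other 31 a log2 fold change of −1 lay within the interval.

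Regulators of osteoblast differentiation gave no call, and the side of 0 on which they lay depended on single libraries. Of 18 tested, 4 had a log2 fold change above 0 and 14 below, with a median of −0.13 and a median SE of 0.50. The median was 0.05 without Runx2+/- replicate 2, 0.12 without WT replicate 3 and −0.27 without WT replicate 2, and 0.03 with both libraries numbered 3 left out. Sp7, the osteoblast factor that acts after RUNX2, was at 95.8, 32.3 and 54.2 CPM in Runx2+/- and 64.4, 40.3 and 89.9 CPM in WT. The highest and the lowest of these 6 values were both Runx2+/- libraries, and the log2 fold change was −0.10 (SE 0.47). Dlx5, a homeobox activator of osteoblast genes, was at 22.7, 15.7 and 15.6 CPM in Runx2+/- and 22.6, 20.8 and 24.2 CPM in WT, with a log2 fold change of −0.32 (SE 0.20). Replicates 2 and 3 of Runx2+/- lay below all WT libraries and replicate 1 lay among them. Inhibitors of osteoblast differentiation had a median log2 fold change of −0.01 over 6 genes. Twist1, which binds and restrains RUNX2, was at 38.8, 23.1 and 86.3 CPM in Runx2+/- and 38.2, 22.6 and 88.2 CPM in WT. Its values differed by number and hardly by genotype, with a log2 fold change of −0.01 (SE 0.66). Zfp521, which also restrains RUNX2, had a log2 fold change of 0.13 (SE 0.21).

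Genes of the bone matrix were centred on no difference, with 10 of 20 above 0, 10 below and a median log2 fold change of −0.01. Col1a1, a chain of type I collagen, was at 12712, 4542 and 3851 CPM in Runx2+/- and 7870, 6154 and 8171 CPM in WT. Its WT values lay between the highest Runx2+/- library and the other 2, and the log2 fold change was −0.07 (SE 0.54). Col1a2, the second chain, was at 12733, 5138 and 5690 CPM in Runx2+/- and 8200, 6196 and 9088 CPM in WT, with a log2 fold change of 0.00 (SE 0.46). Col11a1, a fibrillar collagen of cartilage and young bone, was at 782, 412 and 549 CPM in Runx2+/- and 485, 450 and 450 CPM in WT, with a log2 fold change of 0.33 (SE 0.26). The non-collagen proteins behaved in the same manner. Ibsp, the bone sialoprotein that seeds mineral, was at 1547, 415 and 588 CPM in Runx2+/- and 1011, 578 and 1249 CPM in WT, with a log2 fold change of −0.15 (SE 0.57). Spp1, osteopontin, was at 780, 235 and 735 CPM in Runx2+/- and 410, 356 and 916 CPM in WT. Its log2 fold change was 0.06 (SE 0.58), and its groups overlapped widely. Dmp1, a phosphoprotein of maturing osteocytes, was at 87.9, 23.9 and 44.0 CPM in Runx2+/- and 36.5, 31.0 and 42.9 CPM in WT. Replicate 1 alone gave Runx2+/- the higher mean, and the log2 fold change was 0.50 (SE 0.47). Bglap, the osteocalcin of mature osteoblasts, was low in every library, at 8.38, 3.64 and 11.0 CPM in Runx2+/- and 5.13, 3.97 and 8.04 CPM in WT. Its near-identical copy Bglap2 can share its reads, so both values are uncertain.

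Mineralization genes gave the same picture. Of 16 tested among 19 listed, 8 had a log2 fold change above 0 and 8 below, with a median of −0.01. Alpl, the phosphatase that removes the mineral inhibitor pyrophosphate, was at 166, 56.8 and 93.9 CPM in Runx2+/- and 111, 76.6 and 125 CPM in WT. The groups overlapped, and the log2 fold change was 0.02 (SE 0.41). Phex, an endopeptidase of osteoblasts and osteocytes that affects phosphate, was at 78.3, 33.9 and 55.2 CPM in Runx2+/- and 48.0, 38.6 and 56.5 CPM in WT. Its log2 fold change was 0.23 (SE 0.33). Mmp13, the collagenase-3 of bone remodelling, was at 165, 16.5 and 60.6 CPM in Runx2+/- and 78.1, 72.8 and 152 CPM in WT. The 2 ends of its range were both Runx2+/- libraries, and the log2 fold change was −0.32 (SE 0.79). Slc20a1 and Slc20a2, which carry phosphate into cells, had narrow values, with log2 fold changes of −0.04 (SE 0.26) and −0.03 (SE 0.18). Phospho1, Fgf23 and Pdpn were listed but had too few counts to be tested.

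Among the 25 tested genes that are reported as RUNX2 targets, 15 had a log2 fold change above 0 and 10 below, with a median of 0.01. Vegfa, which draws vessels into bone, was among the most even, at 107, 112 and 119 CPM in Runx2+/- and 102, 116 and 109 CPM in WT. Its log2 fold change was 0.05 (SE 0.12, 95% interval −0.23 to 0.33). Tgfbr1, a TGF-beta receptor, was at 160.3, 153 and 172 CPM in Runx2+/- and 167, 154 and 143 CPM in WT, with a log2 fold change of 0.06 (SE 0.12). Col10a1, the collagen of hypertrophic cartilage, had the lowest log2 fold change of the list, −1.15 (SE 1.10), at 8.91, 2.07 and 25.9 CPM in Runx2+/- and 5.43, 20.6 and 55.7 CPM in WT. Its range was wide in both groups, and its interval of −3.84 to 1.55 holds both directions.

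**Figure D2:**
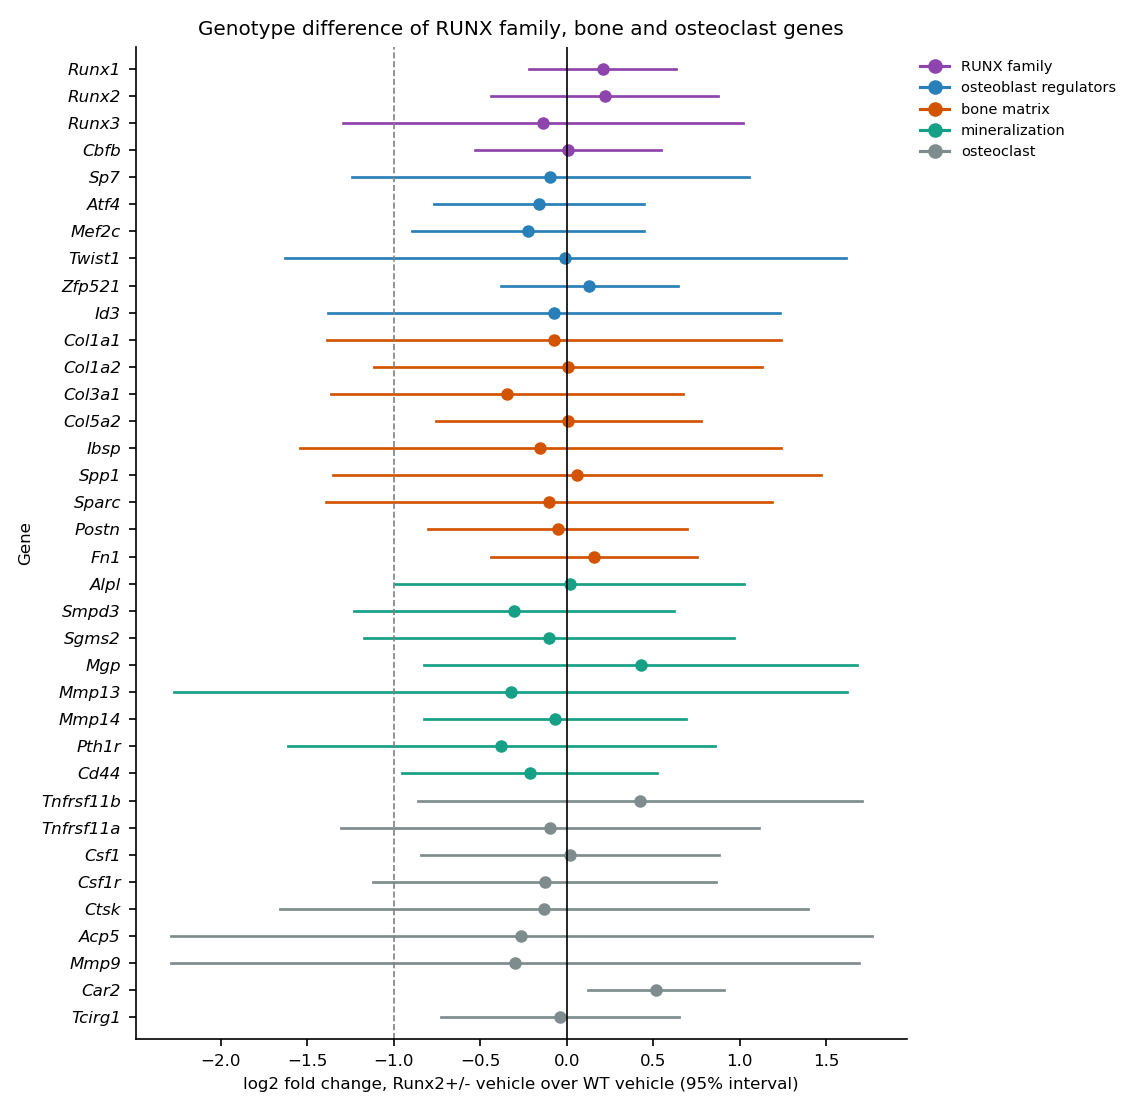
Log2 fold change of Runx2+/- vehicle over WT vehicle for RUNX family, bone and osteoclast genes (points) with the 95% interval from the fit (lines, n = 3 each). The solid line is no difference and the dashed line is −1, and the interval crosses 0 for every gene shown but Car2, at 0.52 (0.12 to 0.91).

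The level of bone genes varied within the heterozygotes. Replicate 1 was the highest of the 3 Runx2+/- libraries in 15 of 20 bone matrix genes, 12 of 16 mineralization genes and 18 of 25 reported targets, against 3976 of the 17565 genes tested. Replicate 2 was the lowest of all 6 libraries in 18 of 20 bone matrix genes, against 3888 of all genes tested. The order was not limited to bone. Replicate 1 was the highest Runx2+/- library in 18 of 18 skeletal muscle genes, and Runx2+/- replicate 2 was the lowest of all 6 libraries in 20 of 26 WNT genes and 14 of 16 endothelial genes. The mean log2 CPM of the bone matrix list spanned 1.22 among the Runx2+/- libraries and 0.70 among the WT libraries, and the group means differed by −0.04. Over the 66 bone genes, the highest library exceeded the lowest by more than 2-fold in 42 genes within Runx2+/- and in 24 within WT. For Col1a1 that ratio was 3.30 in Runx2+/- and 1.33 in WT, and for Runx2 itself it was 2.01 in Runx2+/- and 1.09 in WT. With 3 libraries a group, whether the spread itself differs by genotype was not tested. Between libraries that share a number, the mean log2 CPM of the 66 genes differed by 0.45 in the pair numbered 1, −0.30 in that numbered 2 and −0.34 in that numbered 3, Runx2+/- minus WT. The bone matrix median accordingly moved with the library left out. It was −0.31 without Runx2+/- replicate 1, 0.23 without Runx2+/- replicate 2 and 0.26 without WT replicate 3. It was 0.30 with both libraries numbered 3 left out. When 1 library was left out, the mineralization median ran from −0.16 to 0.17 and that of reported targets from −0.25 to 0.19. In bulk tissue, fewer cells of a type and less RNA per cell cannot be told apart.

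**Figure D3:**
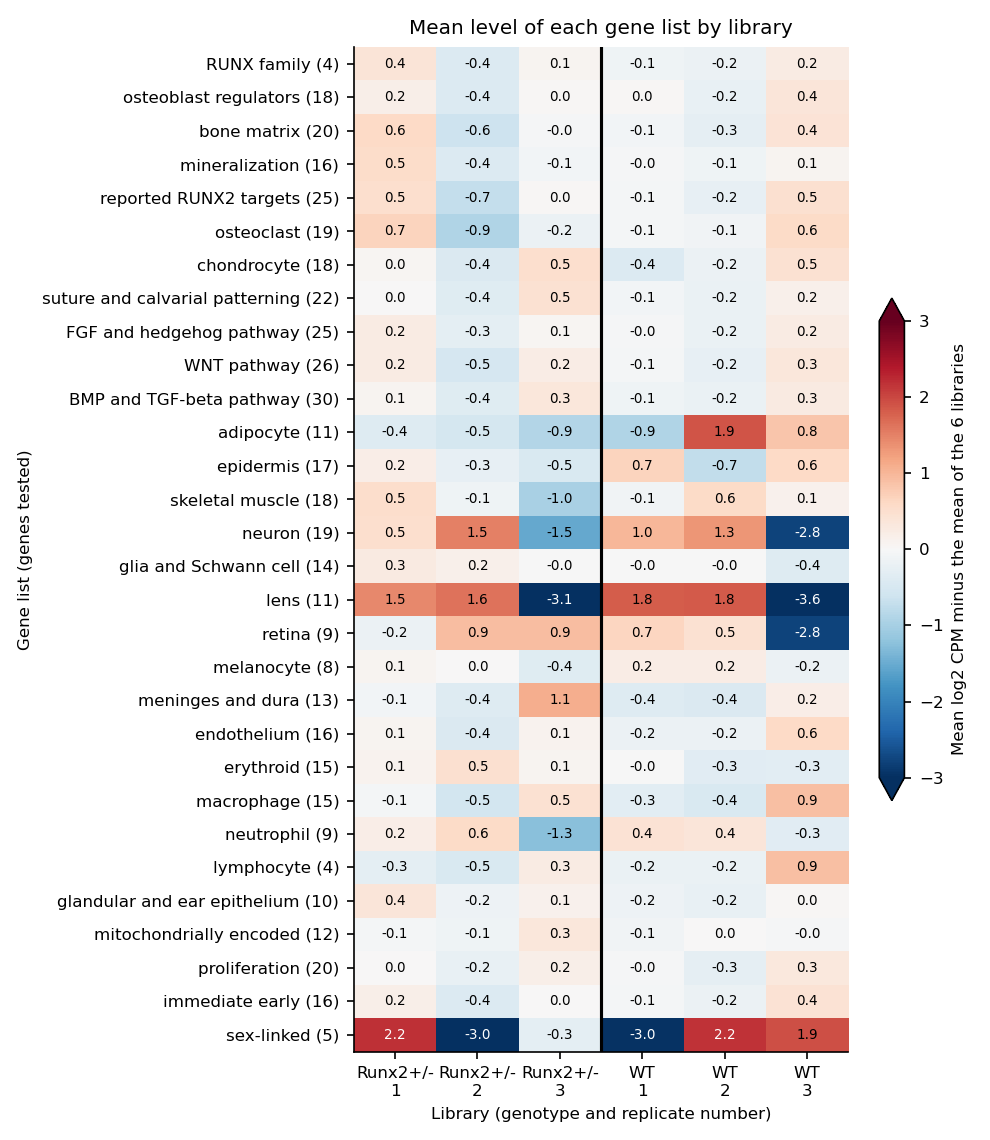
Mean log2 CPM of each gene list in each library, as the difference from the mean of the 6 libraries (colour and printed value), with Runx2+/- left of the line and WT right of it. Bone and osteoclast lists are highest in Runx2+/- replicate 1 or WT replicate 3 and lowest in Runx2+/- replicate 2, while lens and neuron lists separate both libraries numbered 3 from the rest and the adipocyte list is high in WT replicates 2 and 3.

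Osteoclast genes followed the bone genes from library to library. Of 19 tested, 4 had a log2 fold change above 0 and 15 below, with a median of −0.11 and 0 calls. Ctsk, the cathepsin that degrades bone collagen, was at 303, 63.7 and 165 CPM in Runx2+/- and 142, 128 and 312 CPM in WT, with a log2 fold change of −0.13 (SE 0.62). Acp5, the tartrate-resistant acid phosphatase, was at 112, 11.4 and 27.7 CPM in Runx2+/- and 45.7, 45.5 and 90.6 CPM in WT, with a log2 fold change of −0.26 (SE 0.83). Replicates 2 and 3 of Runx2+/- lay below all WT libraries for Acp5, and replicate 1 lay above all. Within Runx2+/- the ratio of highest to lowest library was 9.83 for Acp5 and 8.16 for Mmp9, and within WT it was 1.99 and 1.92. The median of the list was −0.35 without Runx2+/- replicate 1 and 0.20 without WT replicate 3. The signals to osteoclasts also overlapped. Tnfsf11 was at 4.66, 1.20 and 1.76 CPM in Runx2+/- and 2.18, 1.99 and 3.86 CPM in WT, and Tnfrsf11b had a log2 fold change of 0.42 (SE 0.52). Csf1, the growth factor of the osteoclast lineage, had one of 0.02 (SE 0.35).

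Car2 was the 1 of 19 osteoclast genes whose groups did not overlap, a share near the 4.73% of all genes tested. This carbonic anhydrase supplies acid for bone resorption and is also made by red cells and glia. It was at 34.2, 36.8 and 31.4 CPM in Runx2+/- and 25.6, 26.0 and 20.0 CPM in WT. Every Runx2+/- library was above every WT library, and the log2 fold change was 0.52 (SE 0.16, 95% interval 0.12 to 0.91), short of the adjusted threshold in edgeR. Its level did not follow the other osteoclast genes, since Runx2+/- replicate 2 was its highest library and the lowest for Acp5. Erythroid genes had values on the same side as Car2, with 13 of 15 above 0 and a median log2 fold change of 0.47, and glial genes had 12 of 14 above 0 and a median of 0.25. The part of either in the level of Car2 was not tested.

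Cartilage, suture and signalling genes gave no call either. Of 18 chondrocyte genes, 13 had a log2 fold change above 0, with a median of 0.21. This median was −0.08 without Runx2+/- replicate 3 and 0.24 with both libraries numbered 3 left out. Col2a1, the main cartilage collagen, was at 336, 224 and 681 CPM in Runx2+/- and 196, 264 and 624 CPM in WT, with a log2 fold change of 0.19 (SE 0.59). Sox9, the factor that specifies cartilage, was at 25.3, 23.0 and 42.7 CPM in Runx2+/- and 21.6, 24.5 and 28.2 CPM in WT. Among 22 genes of sutures and calvarial patterning 13 were above 0, with a median of 0.06, which was −0.17 without Runx2+/- replicate 3 and 0.32 without Runx2+/- replicate 2. Gli1, which marks suture stem cells and hedgehog response, was at 57.2, 32.9 and 63.5 CPM in Runx2+/- and 54.7, 41.3 and 71.0 CPM in WT, and its log2 fold change was −0.12 (SE 0.31). Alx4, a homeobox gene needed to close the skull vault, had 53.8, 37.4 and 60.6 CPM in Runx2+/- and 46.2, 35.3 and 34.4 CPM in WT, with a log2 fold change of 0.39 (SE 0.23).

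No gene of the pathway lists was called. Of 25 FGF and hedgehog genes, 11 had a log2 fold change above 0 and 14 below, with a median of −0.05, which ran from −0.21 to 0.09 when 1 library was left out. Their ligands had a median of 0.37 over 8 genes, their receptors −0.06 over 7 and their targets −0.13 over 10. Fgf2, a growth factor of osteoprogenitors, was the 1 member whose groups did not overlap, at 2.30, 1.58 and 3.00 CPM in Runx2+/- and 1.22, 1.18 and 1.46 CPM in WT. Its log2 fold change was 0.83 (SE 0.34), also short of the adjusted threshold, and 1 of 25 is close to the 4.73% of all genes without overlap. The receptors Fgfr1, Fgfr2 and Fgfr3, which carry FGF signals in sutures, had log2 fold changes of −0.11 (SE 0.23), 0.01 (SE 0.28) and 0.00 (SE 0.22). Of 26 WNT genes, 11 were above 0 and 15 below, with a median of −0.05, and of 30 BMP and TGF-beta genes 15 were above 0, with a median of 0.00. When 1 library was left out, the WNT median ran from −0.14 to 0.21 and the BMP and TGF-beta median from −0.09 to 0.19. Ctnnb1, the WNT effector beta-catenin, had a log2 fold change of −0.05 (SE 0.19), and Smad5, a BMP effector, of −0.01 (SE 0.13). Groups did not overlap for Sfrp1, a secreted WNT inhibitor, at 148, 147 and 152 CPM in Runx2+/- and 141, 137 and 113 CPM in WT. Nor did they for Id2, a BMP-induced inhibitor of helix-loop-helix factors, at 90.1, 109.5 and 112 CPM in Runx2+/- and 116, 124 and 119 CPM in WT, or for the BMP effector Smad1, whose log2 fold change was −0.13 (SE 0.11). These are 1 of 26 WNT genes and 2 of 30 BMP and TGF-beta genes, again near the 4.73% of all genes. Genes of the cell cycle had a median of −0.05 over 20 genes, with 0 at an unadjusted p under 0.05.

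The adipocyte list had the lowest median of any list with more than 10 tested genes. All 11 tested of 15 listed had log2 fold changes below 0, with a median of −1.47, and 0 were called. At an unadjusted p under 0.05 in edgeR were 3 of them, Adipoq, Pparg and Cebpa, against 0.137% of all genes on the lower side. Adipoq, the fat-cell hormone adiponectin, was at 0.827, 0.925 and 0.130 CPM in Runx2+/- and 0.102, 26.1 and 21.6 CPM in WT. WT replicates 2 and 3 were high and WT replicate 1 was as low as the heterozygotes, so the groups overlapped. The log2 fold change was −4.63 (SE 1.69). Fabp4, the fatty acid carrier of fat cells and vessels, was at 38.5, 28.7 and 86.0 CPM in Runx2+/- and 21.1, 218 and 193 CPM in WT. Pparg, the regulator of fat-cell differentiation, was at 3.84, 3.16 and 5.21 CPM in Runx2+/- and 3.71, 15.5 and 14.7 CPM in WT, with a log2 fold change of −1.47 (SE 0.57). Ucp1, the uncoupling protein of brown fat, was high in WT replicate 2 alone, at 67.1 CPM, and the next highest library, Runx2+/- replicate 2, was at 1.90 CPM. Cebpa, a factor of fat and myeloid cells, was the 1 of 11 members without overlap, against 2.18% of all genes tested on the lower side. It was at 17.9, 12.6 and 13.6 CPM in Runx2+/- and 19.8, 19.9 and 36.0 CPM in WT. The list's median was −0.48 without WT replicate 2 and −1.89 without WT replicate 1.

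**Figure D4:**
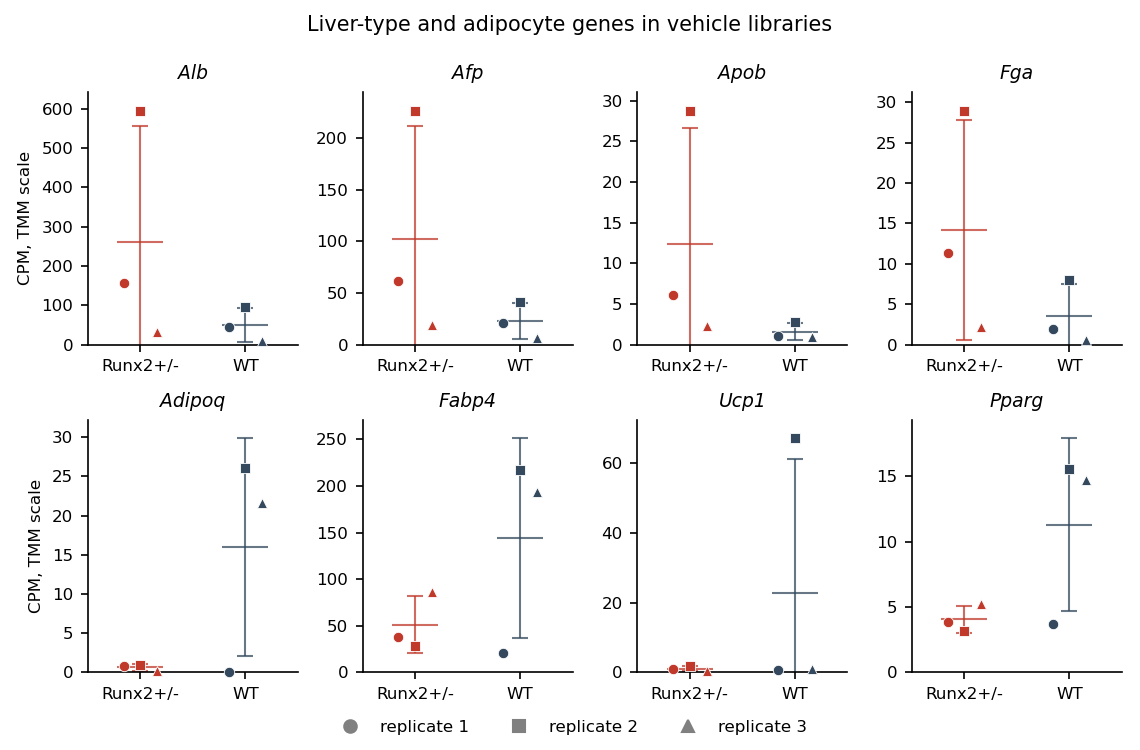
Level of 4 genes made chiefly by liver (top row) and 4 adipocyte genes (bottom row) in each vehicle library (CPM, linear axes from 0), with group means and 1 SD (n = 3 each) and a marker for each replicate number. Alb is higher in Runx2+/- than in WT for each replicate number, and Adipoq is above 20 CPM only in WT replicates 2 and 3.

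Other tissues near the bone also differed in value between groups without a call. All 17 epidermal genes had log2 fold changes below 0, with a median of −0.41, which was −0.14 without WT replicate 1 and −0.75 without WT replicate 2. Krt1, a keratin of the upper epidermis, was at 1203, 956 and 359 CPM in Runx2+/- and 2054, 529 and 1029 CPM in WT, so the groups overlapped. Skeletal muscle had 17 of 18 below 0, with a median of −0.35, which became −0.07 without Runx2+/- replicate 3, −0.09 without WT replicate 2 and −0.72 without Runx2+/- replicate 1. Endothelial genes had 14 of 16 below 0, with a median of −0.21, which was 0.10 without WT replicate 3 and 0.05 with both libraries numbered 3 left out. Cldn5, a tight-junction protein of vessels, had no overlap, at 21.1, 18.8 and 16.9 CPM in Runx2+/- and 23.6, 28.0 and 38.0 CPM in WT, and a log2 fold change of −0.66 (SE 0.22). It was the 1 of 16 endothelial genes without overlap, against 2.18% of all genes tested on the lower side. The endothelial genes Kdr and Flt1, both VEGF receptors, had log2 fold changes of −0.08 (SE 0.12) and −0.02 (SE 0.13). Meningeal genes had 11 of 13 above 0, with a median of 0.44. Cldn11, a junction protein of the arachnoid, was at 48.7, 46.6 and 202 CPM in Runx2+/- and 40.1, 34.9 and 62.9 CPM in WT. The median of the meningeal list was −0.08 without Runx2+/- replicate 3 and 0.19 with both libraries numbered 3 left out. Blood and immune lists had medians of −0.23 for macrophages (15 genes), −0.27 for neutrophils (9) and −0.25 for lymphocytes (4). Without WT replicate 3 the macrophage median was 0.46 and the lymphocyte median 0.11, and without WT replicate 2 the neutrophil median was 0.01. The median was −0.02 for neurons (19), −0.29 for lens (11), 0.80 for retina (9), −0.21 for melanocytes (8) and 0.32 for glandular and ear epithelium (10). When 1 library was left out, the neuron median ran from −0.82 to 0.42, the lens median from −0.87 to 0.22 and the retina median from 0.26 to 1.09. The retina median was 0.004 with both libraries numbered 3 left out. Mitochondrially encoded genes had 12 of 12 above 0 with a median of 0.09, which was −0.09 without Runx2+/- replicate 3. Immediate early genes had a median of −0.21 (16), which was 0.06 without WT replicate 3, and the sex-linked genes one of −0.89 (5). The part of these tissues in the bone values was not tested.

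None of the 12 genes with the smallest p-values in each direction was on a bone matrix, osteoblast or mineralization list. Even with the reported targets, these lists hold only 66 of the 17565 genes tested. Their absence from so short a ranking therefore says little about bone genes. Onecut1, a transcription factor of liver and neurons, had the smallest unadjusted p in edgeR, 0.00766, with an adjusted p of 1.00. It was at 0.649, 0.870 and 0.651 CPM in Runx2+/- and 0.152, 0.294 and 0.0633 CPM in WT, with a log2 fold change of 2.08 (SE 0.53). WT replicate 1 had 3 counts and WT replicate 3 had 1, at or under the floor, so this fold rests on few counts. Lrp2, the endocytic receptor megalin, was at 23.9, 24.4 and 31.3 CPM in Runx2+/- and 14.7, 16.6 and 18.2 CPM in WT. All 3 Runx2+/- libraries were above all 3 WT libraries, and the log2 fold change was 0.68 (SE 0.18). Ebf3, a helix-loop-helix factor of mesenchyme and neurons, was at 95.5, 112 and 98.0 CPM in Runx2+/- and 76.7, 72.8 and 81.1 CPM in WT. Its groups were narrow and apart, with a log2 fold change of 0.41 (SE 0.12). Spock3, an extracellular proteoglycan, was at 30.3, 40.0 and 55.9 CPM in Runx2+/- and 20.7, 25.7 and 25.3 CPM in WT, with a log2 fold change of 0.82 (SE 0.25). Slc17a8, a vesicular glutamate transporter, had one of 0.97 (SE 0.28). On the lower side, Fscn1, the actin-bundling protein fascin, was at 179, 174 and 163 CPM in Runx2+/- and 207, 226 and 250.5 CPM in WT, with a log2 fold change of −0.40 (SE 0.13). Epn1, an endocytic adaptor, was at 91.3, 89.5 and 78.0 CPM in Runx2+/- and 101, 115 and 112 CPM in WT, with one of −0.34 (SE 0.12). Fpr1, a chemotactic receptor of neutrophils, was low in Runx2+/-, at 0.472, 0.435 and 0.391 CPM, against 1.12, 0.662 and 0.886 CPM in WT. Of genes without overlap and with a mean of at least 1 CPM, Cps1, Cubn and Gm12829 were among those with the highest log2 fold changes, at 1.73 (SE 0.55), 1.62 (SE 0.64) and 1.51 (SE 0.66). The lowest were in Tph1, Lrg1, Gm11824, Rilp and Yjefn3, at −1.28 to −0.93.

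**Figure D5:**
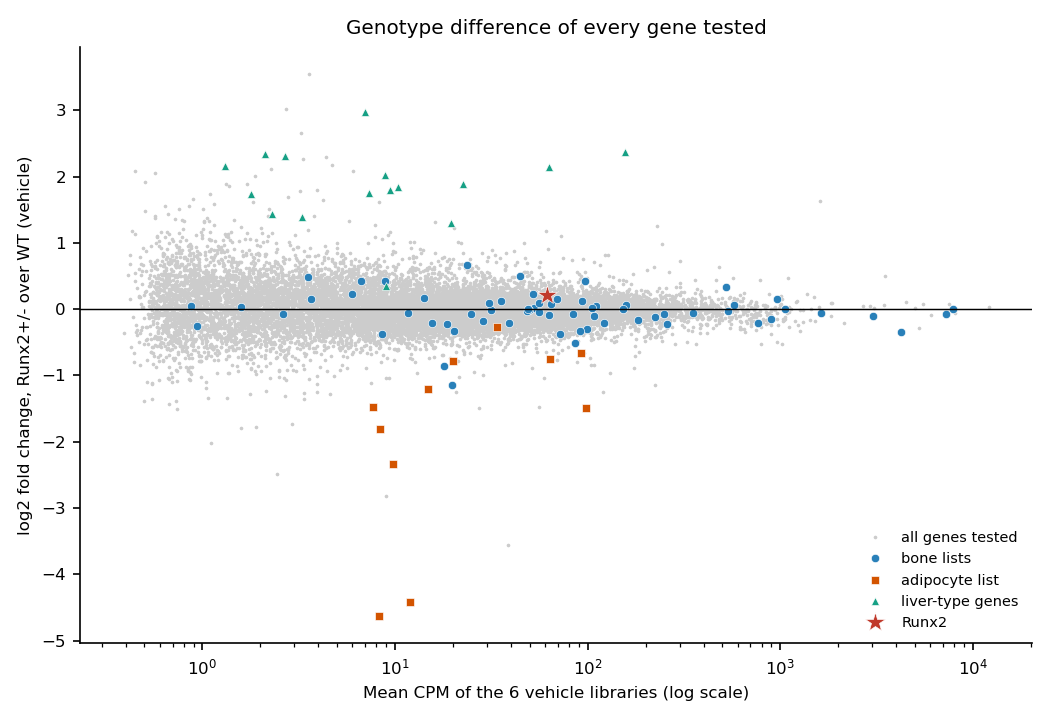
Log2 fold change of Runx2+/- over WT against the mean CPM of the 6 vehicle libraries (log axis) for the 17565 genes tested (grey). Runx2 (star, 0.22) and the bone lists lie around 0, 11 of 11 adipocyte genes lie below it and 16 of 16 liver-type genes above it, and none was called.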

How the data were processed

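RNA was sequenced from E17.5 calvariae with a stranded total-RNA kit, per the labels' protocols. The authors deposited raw read counts, 1 whole number for each Ensembl gene. The authors used Trimmomatic, Bowtie2, SAMtools and HTSeq, per the submitters' processing notes, which name the human build GRCh38.p7 although the gene identifiers are mouse. Versions and the strand setting are not given in the sources used here, so antisense, overlapping and near-identical genes are uncertain. The 5 summary entries were removed, which left 39179 genes, of which 37693 matched a symbol.

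Counts of the 6 vehicle libraries were filtered with filterByExpr (17565 genes), scaled by TMM (factors 0.925 to 1.04) and tested with edgeR 4.0.16 in R 4.3.3 (robust quasi-likelihood, two-sided, 4 residual degrees of freedom, Benjamini-Hochberg over all genes). The SE of a log2 fold change was taken as its size over the root of F. An exact permutation test of 3 libraries against 3 has 0.1 as its smallest p, so none was run. Deviations of same-numbered libraries from their group means correlated at r = 0.228, 0.759 and 0.817, and the numbers were also taken as pairs. The libraries numbered 1 were not each other's closest match. WT replicate 1 correlated more with Runx2+/- replicate 2 (r = 0.695), and Runx2+/- replicate 1 more with WT replicate 2 (r = 0.287). The members and the 30 lists were chosen with earlier results of these data known. Named are the 12 genes of smallest p in each direction, the 5 extremes without overlap in each direction with a mean of at least 1 CPM, and the 4 of highest mean CPM in each role of a list. Other genes were named for their role after their values were seen. Some genes that the rule names are not reported here. The edgeR fit was checked on simulated counts that had no split by replicate number. That check therefore does not show what the fit can find in the presence of the split seen here. Alternatives were other filters, scalings, libraries and tools, a replicate block, 1 surrogate variable and leaving out each library.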

Additional observations from a re-analysis of the deposited data

How the results depend on the processing

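Under all 18 alternatives 0 genes passed the adjusted threshold, and the smallest adjusted p of any was 0.533, in the paired fit with a replicate block on 6 libraries. Genes at an unadjusted p under 0.05, 83 in the reported fit, numbered 543 with the replicate block on 6 libraries and 26 with it on 12. They numbered 974 with 1 surrogate variable, 222 with both libraries numbered 3 left out (added after the data were seen), 55 with all 12 libraries and 138 with 11. They numbered 221 with no filter, 55 with a filter of 1 CPM in 3 libraries and 156 with DESeq2, and 74 to 175 when 1 library was left out, and the cause was not tested. The log2 fold change of Runx2 was 0.03 to 0.47 when 1 library was left out. Of 189 named genes, 70 kept the sign of their log2 fold change under every alternative, and 1 alternative turned at most 57. Of 30 list medians 21 turned sign under at least 1 alternative. The adipocyte, epidermis, skeletal muscle, glia, retina, melanocyte, erythroid, ear epithelium and sex-linked medians did not. A kept sign is not a kept size. With both libraries numbered 3 left out, the median was 0.004 for retina, −0.06 for skeletal muscle, −0.11 for epidermis and −0.04 for sex-linked genes. With 3 libraries a group and a common biological coefficient of variation of 0.403, the spread among libraries limits the precision more than depth does for genes well above the floor. That coefficient was 0.194 with the replicate block on 6 libraries, 0.177 with 1 surrogate variable and 0.211 with both libraries numbered 3 left out. The median SE was 0.166 with that block, against 0.290 in the reported fit. Part of the spread therefore went with the replicate number.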

Other observations

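Transcripts made chiefly by liver were higher in Runx2+/- in each pair of libraries that share a number, a group picked after its values were seen and therefore not tested. Of 16 such genes, 15 were higher in Runx2+/- in all 3 pairs, Rbp4 being the exception, and 14 had their highest level in Runx2+/- replicate 2. Of all 17565 genes tested, 4585 (26.1%) had all 3 such differences of 1 sign, and genes of 1 tissue are not independent of each other. Alb, serum albumin, was at 156, 595 and 32.7 CPM in Runx2+/- and 44.7, 96.2 and 10.6 CPM in WT. Within the pairs numbered 1, 2 and 3 the ratio of Runx2+/- to WT was 3.49, 6.19 and 3.10. Afp, fetal alpha-fetoprotein, had ratios of 2.94, 5.44 and 2.80, and the apolipoprotein gene Apob 5.70, 10.3 and 2.65. Ahsg, fetuin-A, a liver protein that inhibits mineral growth in blood and stands on the mineralization list, had ratios of 3.52, 3.81 and 3.14 and a log2 fold change of 1.89 (SE 1.22). Since the levels also differed widely by number, the groups overlapped in 14 of the 16 genes and 0 were called in edgeR. Genes of red cells, which form in the fetal liver, had values on the same side. Slc4a1, the anion exchanger of red cells, was at 50.7, 60.6 and 22.5 CPM in Runx2+/- and 39.3, 34.1 and 15.6 CPM in WT.

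Transcripts of the eye, ear and choroid plexus were carried by single libraries or numbers. Ttr, transthyretin, which is made by choroid plexus and liver, was at 10.8, 188 and 769 CPM in Runx2+/- and 202, 197 and 4.62 CPM in WT. Otx2, a factor of retina and choroid plexus, was at 21.3, 29.3 and 37.9 CPM in Runx2+/- and 27.7, 25.7 and 2.66 CPM in WT. The inner-ear gene Oc90, otoconin, was high in both libraries numbered 3, at 90.8, 66.8 and 456 CPM in Runx2+/- and 48.5, 54.9 and 320 CPM in WT. Epcam, an epithelial adhesion protein, was even within groups and did not overlap, at 62.3, 56.0 and 58.0 CPM in Runx2+/- and 49.4, 45.3 and 49.0 CPM in WT. It was the 1 of 10 glandular and ear epithelium genes without overlap, against 2.55% of all genes tested on the higher side, and was not called.

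Genes near Runx2 on chromosome 17 were read after the data were seen. Of 100 tested within 5 Mb, 38 had a log2 fold change above 0 and 62 below, with a median of −0.07. Groups did not overlap in 4 of them, 1700071M16Rik, Ptchd4 and Tspo2 with higher and Gm26917 with lower values in Runx2+/-. That share is near the 4.73% of all genes tested. Supt3, which overlaps Runx2 on the other strand, had a log2 fold change of −0.05.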
